A study of Mus musculus with 6 samples.

Results

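Coagulation and fibrinolysis genes are a set of 37 mouse genes chosen by symbol, covering the clotting factors, their cofactors and enzymes, the anticoagulants, the fibrinolytic system and the receptors that sense clotting proteases. Of these, 36 were among the 20140 genes of the deposited tables, and all 36 passed the filter on low counts, which 16370 genes passed in all. F2rl1, a protease-activated receptor, was not analysed here. The RNA came from the livers of 6 mice on day 21, with 2 livers in each of the groups labelled control (sham), intra-C and intra-S. The sham mice received PBS, and the mice of the other groups carried CT26, a colorectal carcinoma cell line from BALB/c mice. The study describes CT26 tumors placed in the cecum, with the liver in a premetastatic state, and CT26 cells injected into the spleen, which gives tumors in the liver, in BALB/c mice of 6 to 10 weeks of age. The labels do not spell out which of these models intra-C and intra-S stand for, so the groups keep their label names. Tumor site, route of injection and the tumor load of the liver changed together with the group and cannot be told apart.

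Blood clots when tissue factor and a cascade of plasma proteases generate thrombin, which cuts fibrinogen into fibrin that factor XIII then crosslinks. Most of these plasma proteins are made by hepatocytes, and several need a vitamin K-dependent modification in order to work. Protein C, protein S, thrombomodulin and tissue factor pathway inhibitor restrain the cascade, and plasmin, made from plasminogen by its activators, dissolves the clot. Fibrinogen is also a classical acute phase protein, whose production in the liver rises during inflammation.

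The libraries held between 32838321 and 43368309 counts, so that the usual limit for a count of 0, 3 counts, lies between 0.0679 and 0.0928 CPM. CPM values are the counts of a gene relative to the library total, scaled by TMM, a normalization that offsets differences in RNA composition, and TPM values, which the authors scaled by gene length, were used to compare levels between genes. The livers of a group differed beyond counting error. Among members above 1 CPM in the higher liver of a group, 1 was over 2-fold apart between both livers in sham, 2 in intra-C and 10 in intra-S. The tissue is whole liver, and the hepatocyte markers summed to between 115780 and 189069 CPM in the 6 livers. Fewer cells of a type and less RNA per cell cannot be told apart in such bulk samples.

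In the sham livers, 20 members had a mean of 100 TPM or more and 12 a mean under 5 TPM. On this scale Fgb was highest, at 3603 ± 102 TPM (SD, n = 2), followed by Fgg at 2177 ± 92.2 TPM and Plg at 2046 ± 83.2 TPM. Kng1, F2 and Fga came next, at 1737 ± 121, 1733 ± 25.4 and 1567 ± 94.5 TPM, of which Kng1 and F2 differed by less than their spread. At the low end were Plat (0.281 ± 0.0320 TPM), Plaur (0.275 ± 0.114 TPM), Plau (0.227 ± 0.208 TPM) and F13a1 (0.0671 ± 0.0150 TPM), and the first 3 of these also lay within their spread.

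The members took a larger part of the RNA in the livers of tumor-bearing mice. Their share of all counts was 2.07% and 2.15% in sham, 7.36% and 7.14% in intra-C, and 5.16% and 6.76% in intra-S. In edgeR's quasi-likelihood test with Benjamini-Hochberg adjustment over all genes tested, 10 of the 36 members (27.8%) were called higher in intra-C than in sham livers at an adjusted p under 0.05, against 4.92% of all genes tested. In intra-S, 14 members (38.9%) were called higher, against 6.78% of all genes. None was called lower in either comparison, against 2.38% of all genes called lower in intra-C and 3.95% in intra-S. At an unadjusted p under 0.05 in edgeR, 1 member was lower in each comparison (F3 in intra-C and Klkb1 in intra-S), and DESeq2 called 0 and 1 lower, against 6.78% and 8.95% of all genes. The median log2 fold change of the members was 0.80 in intra-C and 0.73 in intra-S, beside 0.01 and 0.04 over all genes tested. Both comparisons use the same sham livers. The members called in both numbered 9, namely Fga, Fgb, Fgg, F13a1, Kng1, Kng2, Pros1, Thbd and Cpb2. In this fit over all 6 livers Gas6 was called in intra-C and not in intra-S, and Tfpi, Plau, Plaur, Anxa2 and F2r in intra-S and not in intra-C. DESeq2 called Tfpi, Plau, Plaur and Anxa2 in both comparisons, with 21 members higher in intra-C and 18 in intra-S, against 10.4% and 12.6% of all genes tested. An edgeR fit of only the groups compared called 21 members higher and 2 lower in intra-C, against 16.3% and 14.2% of all genes. In intra-S it called 6 higher, against 1.75%, namely Fga, Fgb, Fgg, F13a1, Thbd and Anxa2. The intra-S calls of Kng1, Kng2, Pros1, Cpb2, Tfpi, Plau, Plaur and F2r were lost in that fit. Below, a call without further words is one of the fit over all 6 livers. Without either one of the sham livers 0 members, and 0 genes of the whole table, were called in either comparison.

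**Figure D1:**
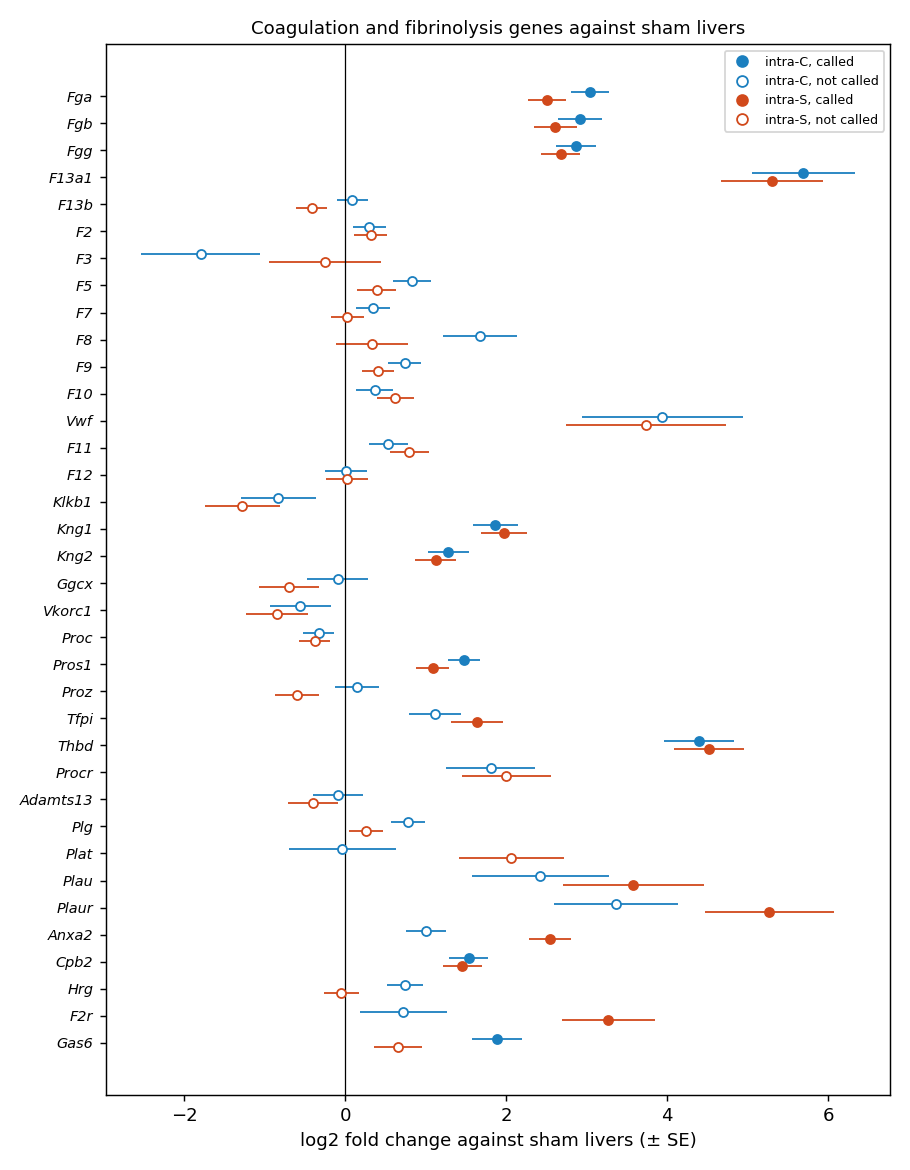
Log2 fold change of 36 coagulation and fibrinolysis genes (rows, ordered by role) against sham livers, on the x axis, for intra-C (blue) and intra-S (orange). Bars are standard errors, and filled points passed an adjusted p of 0.05 in edgeR: 10 genes in intra-C and 14 in intra-S, all of them higher.

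The 3 chains of fibrinogen, the soluble precursor of the clot, rose most in absolute amount. The upstream sequences of these genes are shown because the chains are encoded side by side, within 83007724 to 83049863 of chromosome 3, and moved together. Each is the 250 bases before the annotated start in RefSeq's GRCm38.p6, read 5′ to 3′ on the strand of the gene, with capitals marking CTGGGA, a hexamer known as the core of interleukin-6 response elements in acute phase genes. Pros1, which encodes protein S and lies on another chromosome, is shown as a called member of another role that has the hexamer. Among members with such an upstream sequence, no other one outside fibrinogen and factor XIII that was called in intra-C had it. In Pros1 the capitals TCCCAG mark the same hexamer on the opposite strand.
Fga chr3:83025903-83026152 (+): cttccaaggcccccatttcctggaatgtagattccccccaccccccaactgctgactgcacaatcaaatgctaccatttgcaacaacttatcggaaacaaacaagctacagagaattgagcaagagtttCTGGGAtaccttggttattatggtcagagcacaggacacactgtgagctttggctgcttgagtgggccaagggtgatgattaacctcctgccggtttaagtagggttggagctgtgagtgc
Fgb chr3:83049864-83050113 (-): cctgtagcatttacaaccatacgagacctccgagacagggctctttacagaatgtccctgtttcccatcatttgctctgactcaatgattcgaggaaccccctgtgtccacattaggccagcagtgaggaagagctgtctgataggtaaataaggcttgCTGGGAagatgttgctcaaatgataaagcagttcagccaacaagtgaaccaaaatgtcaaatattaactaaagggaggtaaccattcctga
Fgg chr3:83007474-83007723 (+): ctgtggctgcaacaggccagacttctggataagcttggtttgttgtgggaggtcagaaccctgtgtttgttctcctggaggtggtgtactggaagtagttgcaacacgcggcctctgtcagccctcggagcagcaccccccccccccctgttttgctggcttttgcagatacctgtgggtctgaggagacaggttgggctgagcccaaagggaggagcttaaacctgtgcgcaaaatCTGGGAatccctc
Pros1 chr16:62854057-62854306 (+): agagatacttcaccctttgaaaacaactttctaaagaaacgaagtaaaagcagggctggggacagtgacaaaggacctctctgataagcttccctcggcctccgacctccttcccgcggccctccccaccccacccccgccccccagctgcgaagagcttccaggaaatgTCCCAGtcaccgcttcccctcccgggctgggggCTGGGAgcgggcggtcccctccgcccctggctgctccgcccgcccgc

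The hexamer began 121 bases before the start in Fga, 91 bases in Fgb and 13 bases in Fgg. In Pros1 it began 47 bases before the start on the strand of the gene, and 80 bases before it on the opposite strand. Searched on both strands, CTGGGA was in 27.0% of all 32851 RefSeq windows of this length, in 13 of the 29 members with a window, and in 5 of the 8 of these that were called higher in intra-C. A longer pattern, TTCNNNGAA, known from STAT binding sites, can share bases with the first. It was in 7.02% of all windows and in 4 of the 29 members, F9, Fga, Fgb and Pros1. These are matches of letters and not measured sites.

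Fga had 2446 and 2252 CPM in sham, 20453 and 18203 CPM in intra-C, and 13265 and 13462 CPM in intra-S. Every liver of tumor-bearing mice was far above both sham livers, and both intra-S livers were below both intra-C livers. Against sham, the log2 fold change was 3.04 ± 0.24 (SE, adjusted p = 0.0058) in intra-C and 2.51 ± 0.23 (adjusted p = 0.00578) in intra-S.

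Fgb had 2676 and 2792 CPM in sham, 20897 and 20409 CPM in intra-C, and 13961 and 19349 CPM in intra-S. Its log2 fold change was 2.92 ± 0.27 (adjusted p = 0.00702) in intra-C and 2.61 ± 0.27 (adjusted p = 0.00641) in intra-S. Fgg had 1982 and 2109 CPM in sham, 15757 and 14098 CPM in intra-C, and 11864 and 14297 CPM in intra-S. The groups of tumor-bearing mice overlapped for Fgg but not for Fgb, and for both genes lay above sham without overlap. For Fgg, the log2 fold change was 2.87 ± 0.25 (adjusted p = 0.0064) in intra-C and 2.68 ± 0.24 (adjusted p = 0.00578) in intra-S.

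The proportions of the 3 chains stayed close while their sum rose. The ratio of Fga to Fgb in TPM was 0.463 and 0.408 in sham, 0.495 and 0.451 in intra-C, and 0.481 and 0.352 in intra-S, so that the groups overlapped. The ratio of Fgg to Fgb was 0.598 and 0.610 in sham, 0.609 and 0.558 in intra-C, and 0.686 and 0.597 in intra-S, again with overlap. Together the 3 chains made up 0.800% and 0.814% of all counts in sham, 5.17% and 5.19% in intra-C, and 3.45% and 4.66% in intra-S. Of the TPM of all members, fibrinogen took 42.7% and 42.5% in sham, 74.3% and 76.5% in intra-C, and 71.2% and 74.0% in intra-S.

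Factor XIII, the transglutaminase that crosslinks fibrin, has an A subunit with the enzyme activity (F13a1), made largely by cells of the monocyte and megakaryocyte lineages, and a carrier B subunit (F13b), made by hepatocytes. F13a1 had 0.0985 and 0.136 CPM in sham, which stand for 4 and 6 counts, 3.54 and 8.97 CPM in intra-C, and 4.02 and 5.50 CPM in intra-S. It was near the limit of detection in both sham livers and above it in every other liver. The log2 fold change was 5.69 ± 0.64 (adjusted p = 0.00943) in intra-C and 5.30 ± 0.63 (adjusted p = 0.00912) in intra-S. Its size rests on these few counts in sham and also on the livers of tumor-bearing mice. In intra-C it was 5.49 and 5.94 without sham livers 1 and 2, and 6.22 and 4.90 without intra-C livers 1 and 2. F13b had 209.7 and 207 CPM in sham, 237 and 205 CPM in intra-C, and 152 and 161 CPM in intra-S. It was not called in either comparison (adjusted p = 0.812 and 0.204), although both intra-S livers were below the other 4.

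Markers of the cells that carry factor XIII-A moved with it. The 8 monocyte and macrophage markers summed to 134 and 140 CPM in sham, 562 and 769 CPM in intra-C, and 484 and 714 CPM in intra-S, with 6 of 8 called higher in each comparison and none at 0 in both sham livers. The 8 platelet and megakaryocyte markers summed to 5.20 and 5.52 CPM in sham, 16.3 and 33.4 CPM in intra-C, and 37.5 and 39.6 CPM in intra-S, with 3 of 8 and 4 of 8 called higher. Among them Gp1bb was at 0 in both sham livers. The part of these cells in the level of F13a1 was not tested.

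**Figure D2:**
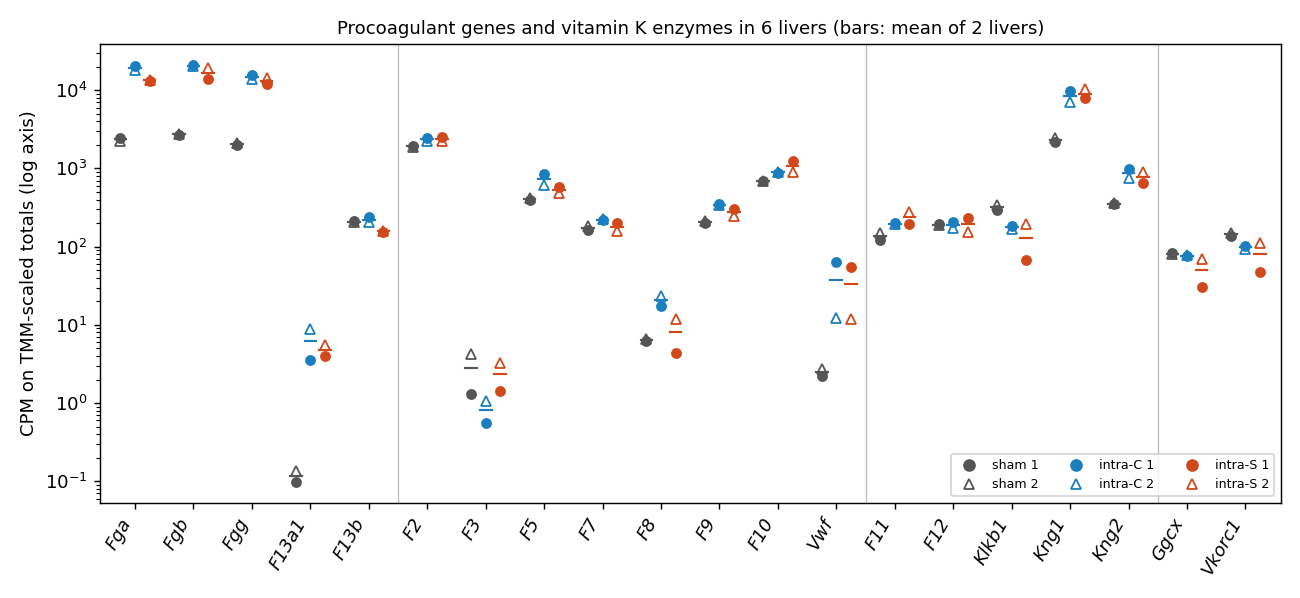
Level of 20 procoagulant genes and vitamin K enzymes in each of 6 livers, in CPM on a log axis. Circles and triangles are livers 1 and 2 of a group, short bars the group means, and vertical lines separate roles. The fibrinogen chains, F13a1, Kng1 and Kng2 lie above sham in all 4 livers of tumor-bearing mice, while F2, F7, F9 and F10 stay within 2-fold over the 6 livers.

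In the fit over all 6 livers, none of the 8 members of the group formed by tissue factor, the vitamin K-dependent factors, factors V and VIII and von Willebrand factor was called in either comparison. DESeq2 called 4 of them higher in intra-C (F5, F8, F9 and Vwf) and 1 in intra-S (Vwf), and edgeR with only the groups compared called 5 in intra-C (F5, F8, F9, F10 and Vwf) and 0 in intra-S. By edgeR's unadjusted p under 0.05, 4 were higher and 1 lower in intra-C, and 2 higher and 0 lower in intra-S, beside 27% and 30.2% of all genes tested in either direction. In 7 of the 8 genes both intra-C livers were above both sham livers, and in 5 of the 8 genes both intra-S livers were, beside 34.4% and 30.4% of all genes tested.

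F2, prothrombin, had 1940.1 and 1905 CPM in sham, 2472 and 2261 CPM in intra-C, and 2544 and 2239.8 CPM in intra-S, a log2 fold change of 0.30 ± 0.21 and 0.31 ± 0.21. F9, factor IX, had 202 and 213 CPM in sham, 346 and 345 CPM in intra-C, and 301 and 249 CPM in intra-S. F10, factor X, had 689 and 696 CPM in sham, 882 and 903 CPM in intra-C, and 1237 and 896 CPM in intra-S. For these 3 genes every liver of tumor-bearing mice was above both sham livers, but by less than 2-fold, and the adjusted p lay between 0.0789 and 0.404. F7, factor VII, which starts the cascade with tissue factor, had 164 and 185 CPM in sham, 219.7 and 225 CPM in intra-C, and 198 and 158 CPM in intra-S, with overlap between sham and intra-S. TPM was also summed over F2, F7, F9 and F10 with the vitamin K-dependent anticoagulants Proc, Pros1 and Proz. This sum was 3382 and 3376 in sham, 3528 and 3606 in intra-C, and 3378 and 3162 in intra-S, within 1.2-fold in all 6 livers.

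The cofactors differed more between livers. F5, factor V, had 398 and 420.0 CPM in sham, 840.3 and 614 CPM in intra-C, and 584 and 488 CPM in intra-S, with an adjusted p of 0.089 and 0.32. F8, factor VIII, made mainly by endothelial cells, had 6.21 and 6.68 CPM in sham, 17.5 and 23.5 CPM in intra-C, and 4.40 and 11.8 CPM in intra-S. The intra-C livers were above sham for F8 (log2 fold change 1.67 ± 0.46, adjusted p = 0.0784), and the intra-S livers lay on both sides of sham. DESeq2, and edgeR with only the groups compared, called F8 in intra-C.

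Vwf, which encodes the endothelial protein that binds platelets and carries factor VIII, had 2.19 and 2.76 CPM in sham, 63.9 and 12.1 CPM in intra-C, and 54.2 and 12.02 CPM in intra-S. All 4 livers of tumor-bearing mice were above both sham livers, and in each of these groups liver 1 was over 4 times as high as liver 2. Its log2 fold change was 3.94 ± 1.00 (adjusted p = 0.0664) in intra-C and 3.74 ± 0.99 (adjusted p = 0.0617) in intra-S, and was not called, whereas DESeq2 gave an adjusted p of 4.38e-05 and 9.39e-05. In edgeR, Vwf was called in intra-C with only the groups compared, and in intra-S with the replicate block and with no filter on low counts. Without liver 1 of the group compared it was 2.28 in intra-C and 2.28 in intra-S.

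F3, tissue factor, the trigger of coagulation on injured or activated cells, had 1.31 and 4.28 CPM in sham, 0.560 and 1.05 CPM in intra-C, and 1.43 and 3.26 CPM in intra-S. Both intra-C livers were below both sham livers, and the sham livers themselves differed over 3-fold. The log2 fold change of -1.80 ± 0.74 in intra-C was not called (adjusted p = 0.179), and was -2.40 without sham liver 1 and -0.70 without sham liver 2.

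In the contact system, which starts clotting on negatively charged surfaces and releases the vasoactive peptide bradykinin, both kininogens were called higher, Kng2 less firmly than Kng1. Kng1, the precursor of bradykinin, had 2193 and 2427 CPM in sham, 9779 and 7051 CPM in intra-C, and 7854 and 10262 CPM in intra-S. Its log2 fold change was 1.87 ± 0.28 (adjusted p = 0.019) in intra-C and 1.97 ± 0.28 (adjusted p = 0.0139) in intra-S. Every liver of tumor-bearing mice was about 3-fold or more above both sham livers.

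Kng2, the second mouse kininogen gene, had 349 and 361 CPM in sham, 972 and 751 CPM in intra-C, and 648 and 897 CPM in intra-S. Its log2 fold change was 1.28 ± 0.26 (adjusted p = 0.0382) in intra-C and 1.12 ± 0.26 (adjusted p = 0.0427) in intra-S. These calls lay close to the threshold and were lost in 8 of 16 alternative settings in intra-C and 9 of 16 in intra-S, among them no TMM, limma on TPM and the replicate block. The TPM ratio of Kng1 to Kng2 was 5.50 and 5.89 in sham, 8.81 and 8.22 in intra-C, and 10.6 and 10.01 in intra-S, so that the groups did not overlap. The 2 genes are close copies of each other and only uniquely aligned reads were counted, so the split between them is uncertain.

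F11, F12 and Klkb1, which encode the proteases of the contact system, were not called in the fit over all 6 livers. With only the groups compared, edgeR called F11 higher and Klkb1 lower in intra-C. F11 had 123 and 149 CPM in sham, 199.6 and 194 CPM in intra-C, and 197 and 276 CPM in intra-S (adjusted p = 0.213 and 0.0843). F12 overlapped between all groups, from 153 to 233 CPM over the 6 livers. Klkb1, plasma prekallikrein, had 294 and 340.2 CPM in sham, 186 and 170.5 CPM in intra-C, and 67.1 and 194 CPM in intra-S, so that all 4 livers of tumor-bearing mice were below sham. Its log2 fold change in intra-S was -1.28 ± 0.47 (adjusted p = 0.127). It was -0.70 without liver 1 of that group and -2.24 without liver 2, and in both cases edgeR called it (adjusted p = 0.0317 and 0.000359). DESeq2 called both Klkb1 and F11 in intra-S. In GENCODE M21, 43.2% of the exon bases of Klkb1 are shared with Gm45753 on the same strand, and how reads there were assigned is not given in the sources used here.

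Ggcx, the carboxylase that modifies the vitamin K-dependent proteins, had 81.8 and 80.9 CPM in sham, 74.8 and 77.4 CPM in intra-C, and 30.2 and 70.0 CPM in intra-S. Vkorc1, the reductase that recycles vitamin K and is the target of warfarin, had 138 and 149.8 CPM in sham, 101 and 94.4 CPM in intra-C, and 47.7 and 112 CPM in intra-S. For both genes all 4 livers of tumor-bearing mice were below both sham livers, beside 34% of all genes in intra-C and 30% in intra-S. Neither was called, with adjusted p between 0.193 and 0.898, although edgeR with only the groups compared called Vkorc1 lower in intra-C. In the intra-S livers the lower value of both enzymes came from liver 1, as for Klkb1. Vkorc1 shares 47.7% of its exon bases with Gm21974 on the same strand in GENCODE M21.

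Among the anticoagulants, protein S and thrombomodulin rose in both groups while protein C was not called. Pros1 had 55.9 and 56.1 CPM in sham, 172 and 139 CPM in intra-C, and 121 and 117 CPM in intra-S. Its log2 fold change was 1.47 ± 0.20 (adjusted p = 0.0156) in intra-C and 1.08 ± 0.20 (adjusted p = 0.0254) in intra-S. Proc, the protease for which protein S is the cofactor, had 548 and 542 CPM in sham, 435 and 430.3 CPM in intra-C, and 401 and 437 CPM in intra-S. Both groups were below sham without overlap, by log2 fold changes of -0.33 ± 0.19 and -0.38 ± 0.19 that were not called (adjusted p = 0.317 and 0.239).

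Thbd, thrombomodulin, the receptor on which thrombin activates protein C, had 0.542 and 1.06 CPM in sham, 20.02 and 14.0 CPM in intra-C, and 22.0 and 15.1 CPM in intra-S. Its log2 fold change was 4.39 ± 0.43 (adjusted p = 0.00725) in intra-C and 4.52 ± 0.43 (adjusted p = 0.00579) in intra-S, the largest among the anticoagulants in both comparisons. The lowest liver of tumor-bearing mice was over 10 times the higher sham liver. Procr, the endothelial protein C receptor, had 0.394 and 0.272 CPM in sham, 0.891 and 1.45 CPM in intra-C, and 1.28 and 1.40 CPM in intra-S. It was above sham in all 4 livers but not called, with a log2 fold change of 1.81 ± 0.55 (adjusted p = 0.0988) in intra-C and 2.00 ± 0.55 (adjusted p = 0.0667) in intra-S. DESeq2 called it in both groups, and edgeR with a minimum of 10 counts in every liver in intra-S.

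Tfpi, the inhibitor of the tissue factor pathway, had 3.60 and 3.17 CPM in sham, 6.09 and 8.60 CPM in intra-C, and 8.31 and 12.7 CPM in intra-S. Both groups were above sham without overlap. The log2 fold change was 1.12 ± 0.32 (adjusted p = 0.0885) in intra-C, not called, and 1.64 ± 0.33 (adjusted p = 0.0307) in intra-S, where the call was lost in 8 of 16 alternative settings, while DESeq2 called Tfpi in both groups. Proz, protein Z, a vitamin K-dependent cofactor for the inhibition of factor Xa, had 307 and 322 CPM in sham, 332 and 365 CPM in intra-C, and 158 and 257 CPM in intra-S. Adamts13, the protease that cuts von Willebrand factor, ranged from 2.75 to 4.63 CPM over all 6 livers, and neither gene was called.

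Endothelial cells, which carry Thbd, Procr, Tfpi and Vwf on or in their cells, were followed by 8 markers. These summed to 86.2 and 96.3 CPM in sham, 241 and 257 CPM in intra-C, and 349.6 and 213 CPM in intra-S, with 4 of 8 called higher in intra-C and 5 of 8 in intra-S and none at 0 in both sham livers. The median log2 fold change over the list was 1.43 in intra-C and 1.66 in intra-S. The part of these cells in the levels of Thbd, Procr, Tfpi, Vwf and F8 was not tested.

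**Figure D3:**
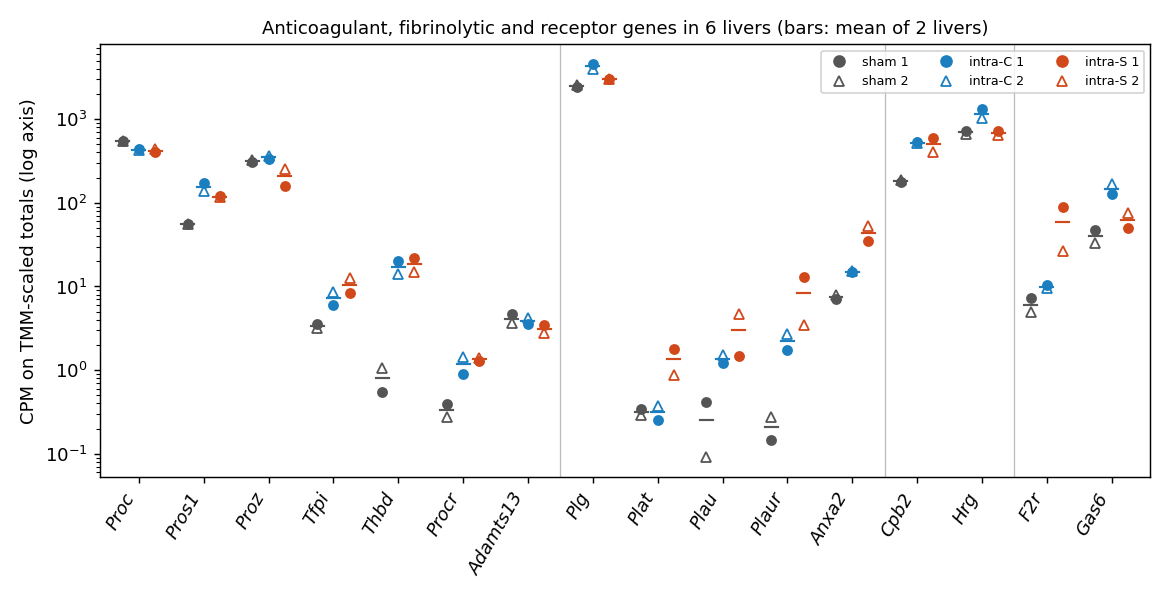
Level of 16 anticoagulant, fibrinolytic, modulator and receptor genes in each of 6 livers, in CPM on a log axis, drawn as for the procoagulant genes (circle, liver 1; triangle, liver 2; short bar, group mean). Thbd, Pros1 and Cpb2 rise in both groups, and Plaur, Anxa2 and F2r lie highest in the 2 intra-S livers.

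In the fibrinolytic system the count of calls depended on the tool and on the livers in the fit. Of its 5 members, plasminogen, both activators and both cell surface receptors, 0 were called in intra-C and 3 in intra-S in the fit over all 6 livers. DESeq2 called 4 in each comparison (Plg, Plau, Plaur and Anxa2 in intra-C, and Plat, Plau, Plaur and Anxa2 in intra-S). With only the groups compared, edgeR called 3 in intra-C (Plg, Plaur and Anxa2) and 1 in intra-S (Anxa2). By edgeR's unadjusted p under 0.05, 4 were higher in each comparison, beside the 27% and 30.2% of all genes given above for either direction, and whether the comparisons differ is tested further on.

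Plg, plasminogen, the circulating precursor of plasmin made by hepatocytes, had 2433 and 2583 CPM in sham, 4566 and 4014 CPM in intra-C, and 2985 and 3016 CPM in intra-S. It had a log2 fold change of 0.77 ± 0.21 (adjusted p = 0.0779) in intra-C and 0.26 ± 0.21 (adjusted p = 0.448) in intra-S. Plat, tissue plasminogen activator, had 0.345 and 0.294 CPM in sham, 0.255 and 0.371 CPM in intra-C, and 1.81 and 0.883 CPM in intra-S. Both intra-S livers were above all other livers, with a log2 fold change of 2.06 ± 0.65 that was not called (adjusted p = 0.092). It was called by DESeq2, and by edgeR with a minimum of 10 counts in every liver and without intra-S liver 2.

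Plau, urokinase, the other plasminogen activator, had 0.419 and 0.0905 CPM in sham, of which the lower value stands for 4 counts, 1.22 and 1.52 CPM in intra-C, and 1.46 and 4.64 CPM in intra-S. Its log2 fold change was 2.42 ± 0.85 (adjusted p = 0.134) in intra-C and 3.58 ± 0.87 (adjusted p = 0.0496) in intra-S. Its size followed the sham liver kept, at 3.87 without sham liver 1 and 1.70 without sham liver 2 in intra-C, and 5.03 and 2.85 in intra-S. The call in intra-S was lost in 10 of 15 alternative settings, among them without liver 2 of that group, at a log2 fold change of 2.52. Plaur, the urokinase receptor of myeloid and other migrating cells, had 0.148 and 0.272 CPM in sham, 1.73 and 2.69 CPM in intra-C, and 13.1 and 3.46 CPM in intra-S. Its log2 fold change was 3.37 ± 0.77 (adjusted p = 0.0511) in intra-C, just outside the threshold, and 5.27 ± 0.80 (adjusted p = 0.0156) in intra-S. All livers of tumor-bearing mice were above both sham livers for both genes.

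Anxa2, annexin A2, which binds plasminogen and tissue plasminogen activator at the cell surface, had 7.05 and 7.97 CPM in sham, 14.9 and 15.2 CPM in intra-C, and 34.9 and 52.7 CPM in intra-S. The 3 groups were in this order without overlap. Against sham, the log2 fold change was 1.01 ± 0.25 (adjusted p = 0.0609) in intra-C, not called, and 2.54 ± 0.26 (adjusted p = 0.00614) in intra-S.

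Cpb2, the carboxypeptidase that thrombin activates to slow the dissolution of fibrin, had 176 and 188 CPM in sham, 536 and 517 CPM in intra-C, and 588 and 409 CPM in intra-S. It rose by a log2 fold change of 1.53 ± 0.24 (adjusted p = 0.0223) in intra-C and 1.45 ± 0.24 (adjusted p = 0.0202) in intra-S. Hrg, histidine-rich glycoprotein, a plasma protein that binds plasminogen and heparin, had 725 and 674 CPM in sham, 1309 and 1021 CPM in intra-C, and 713 and 640.3 CPM in intra-S. It was above sham in intra-C only, without a call (log2 fold change 0.74 ± 0.22, adjusted p = 0.0982), although DESeq2, and edgeR with only the groups compared, called it there.

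F2r, the thrombin receptor PAR1, had 7.22 and 4.89 CPM in sham, 10.3 and 9.65 CPM in intra-C, and 90.0 and 26.7 CPM in intra-S. Its log2 fold change was 0.72 ± 0.54 (adjusted p = 0.435) in intra-C and 3.27 ± 0.58 (adjusted p = 0.0225) in intra-S. Liver 1 set much of this size, and without it the log2 fold change in intra-S was 2.15. Gas6, a vitamin K-dependent ligand of the receptor kinases Tyro3, Axl and Mertk that resembles protein S, had 47.0 and 32.96 CPM in sham, 128 and 168 CPM in intra-C, and 50.04 and 75.8 CPM in intra-S. It rose in intra-C by 1.89 ± 0.31 on the log2 scale (adjusted p = 0.0239), and its log2 fold change in intra-S was 0.65 ± 0.30 (adjusted p = 0.202).

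Plau, Plaur, Anxa2, F2r and Tfpi are also made by cells other than hepatocytes, and markers of such cells were followed. The 8 fibroblast and stellate cell markers summed to 259 and 246 CPM in sham, 319 and 288 CPM in intra-C, and 410.3 and 470.2 CPM in intra-S, with 0 of 8 called in intra-C and 4 of 8 higher in intra-S. The 8 markers of proliferating cells summed to 16.04 and 9.26 CPM in sham, 29.7 and 36.8 CPM in intra-C, and 86.7 and 74.5 CPM in intra-S, with 2 of 8 and 6 of 8 called higher. The 8 neutrophil markers summed to 2.37 and 3.44 CPM in sham, 233 and 505 CPM in intra-C, and 819 and 364 CPM in intra-S, all 8 called higher in each comparison, and Mpo, Elane and Camp were at 0 in both sham livers. Of 6 listed epithelial markers, 5 were tested, with 0 called in intra-C and 1 higher in intra-S. They summed to 3.62 and 4.55 CPM in sham, 6.70 and 5.10 CPM in intra-C, and 4.14 and 13.7 CPM in intra-S. Of these sums, Lgr5 alone gave 2.14 and 1.74 CPM in sham, 4.33 and 2.75 CPM in intra-C, and 0.146 and 3.09 CPM in intra-S. Krt20 was at 0 in 5 livers and had 250 counts in liver 2 of intra-S. The part of fibroblasts, tumor cells, neutrophils and other cells in Plau, Plaur, Anxa2, F2r and Tfpi was not tested. Of the 8 hepatocyte markers, 1 was called higher in each comparison and 1 lower in intra-S.

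The direct comparison of intra-S with intra-C livers called no member and no gene (0% of all genes tested). By edgeR's unadjusted p under 0.05, 4 members were higher and 7 lower in intra-S, which is 11 of 36, beside 13.4% of all genes tested in either direction, and DESeq2 called 2 higher (Anxa2 and F2r) and 2 lower (Hrg and Gas6), beside 1.47% and 1.73% of all genes. The smallest adjusted p of a member in edgeR was 0.285, shared by Anxa2, F2r and Gas6. The members called in one comparison with sham and not in the other are therefore not shown by this test to differ between intra-C and intra-S.

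The 4 members on the higher side in intra-S were the fibrinolytic genes Plat, Plaur and Anxa2 and the thrombin receptor F2r. Their log2 differences, intra-S against intra-C, were 2.096 ± 0.66 for Plat (unadjusted p = 0.0169), 1.90 ± 0.66 for Plaur (unadjusted p = 0.0254), 1.54 ± 0.25 for Anxa2 (unadjusted p = 0.000579) and 2.55 ± 0.56 for F2r (unadjusted p = 0.00312). Without liver 1 of intra-S these differences were 0.65 for Plaur, 1.42 for F2r and 1.49 for Plat, and 1.80 for Anxa2. In all 4 genes both intra-S livers were above both intra-C livers, and the 5 members with this pattern stand beside 21.9% of all genes tested.

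The 7 on the lower side were mostly plasma proteins of hepatocytes. The log2 differences were -0.53 ± 0.22 for Fga (unadjusted p = 0.0495), -0.50 ± 0.19 for F13b (unadjusted p = 0.038), -0.75 ± 0.27 for Proz (unadjusted p = 0.0308), -0.52 ± 0.21 for Plg (unadjusted p = 0.0465) and -0.78 ± 0.22 for Hrg (unadjusted p = 0.0112). The other two were F8, at -1.34 ± 0.45 (unadjusted p = 0.0227), and Gas6, at -1.23 ± 0.30 (unadjusted p = 0.00561). Without liver 1 of intra-S the difference was -0.80 for F8 and -0.44 for Proz, and without liver 2 it was -2.22 and -1.15. In all, 14 of the 36 members had both intra-S livers below both intra-C livers, beside 21.5% of all genes tested.

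**Figure D4:**
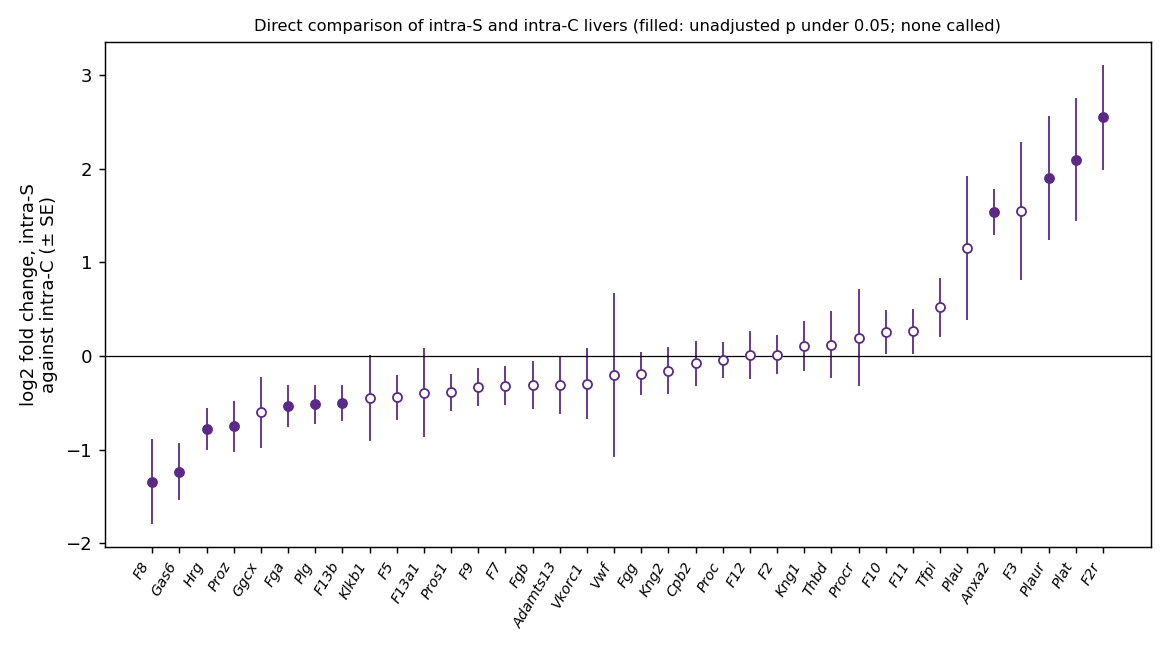
Log2 fold change of each of 36 genes in intra-S against intra-C livers (y axis), with standard errors, ordered from lowest to highest. Filled points had an unadjusted p under 0.05 in edgeR: Hrg, Gas6, F8, Proz, Fga, Plg and F13b on the lower side and Anxa2, Plaur, Plat and F2r on the higher side, with none called after adjustment.

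Several members are neighbours in the genome (GRCm38.p6), and in the fit over all 6 livers the neighbours did not all move alike. On chromosome 3 the genes Fgg, Fga and Fgb lie 11.1 and 8.62 kb apart, and all 3 rose in both groups. On chromosome 16, Hrg lies 24.2 kb from Kng2 and Kng2 29.1 kb from Kng1, and the kininogens were called in both groups while Hrg was not called in either. On chromosome 8, F7, F10 and Proz lie 1.50 and 3.91 kb apart and none was called, whereas Gas6, 389 kb further on, was called in intra-C. F11 and Klkb1, both proteases of the contact system, lie 4.63 kb apart on the same chromosome, and their log2 fold changes had opposite signs, 0.53 and -0.83 in intra-C and 0.80 and -1.28 in intra-S, none of them called.

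Beyond the members, 25 other genes of the pathway were listed (serpins and other inhibitors, factor transport, fibrinogen-like proteins, clearance and further receptors), of which 23 were tested. In edgeR, 6 of these were called higher in intra-C and 8 in intra-S, beside 4.92% and 6.78% of all genes tested, 0 were called lower in either, beside 2.38% and 3.95% (1 in each by edgeR's unadjusted p under 0.05), and 0 in the direct comparison. The most changed was A2m, alpha-2-macroglobulin, a broad inhibitor of proteases including thrombin and plasmin and an acute phase protein of rodents. Sham liver 1 had 3 counts of it and sham liver 2 had 0, against 117 and 103 CPM in intra-C, and 108 and 229 CPM in intra-S, in each case at least 1388-fold higher, taking the lowest liver of the group against 3 counts in a sham library (at least 1465-fold in intra-S).

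Serpinc1, antithrombin, had 2340.5 and 2208 CPM in sham, 1927 and 1665 CPM in intra-C, and 1528 and 1645 CPM in intra-S, all below sham without a call (adjusted p = 0.346 and 0.155). Serpinf2, alpha-2-antiplasmin, had 630.2 and 739 CPM in sham, 1372 and 1211 CPM in intra-C, and 426 and 1150.3 CPM in intra-S, so that both intra-C livers were above sham and the intra-S livers lay on both sides of it. It was not called (adjusted p = 0.242 and 0.791).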

How the data were processed

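The authors purified polyadenylated RNA, aligned the reads to mm10 with HISAT2 2.1.0 and counted uniquely aligned reads on exons with featureCounts (Subread 2.0.6). The deposited tables hold the raw count and the TPM of each gene in each liver. The gene annotation and the strand setting are not given in the sources used here. The counts were tested with edgeR 4.0.16's quasi-likelihood F test (R 4.3.3), after TMM scaling and a filterByExpr filter at 10 counts. The 6 livers shared 1 fit, and p-values of the 16370 genes were adjusted by Benjamini-Hochberg. The procedure was also run on simulated counts with the same spread of a gene in every group. That run cannot show how calls behave under the unequal spread of these groups. SE is the log2 fold change divided by the root of F. With 2 livers per group, the spread is estimated over all groups. The members and the gene lists were chosen with earlier results of these data known. Statistics are printed for called members, for uncalled members with a log2 fold change of at least 1 in size, in the direct comparison at an unadjusted p under 0.05, and for a few others as context. Promoter sequences and coordinates come from RefSeq, GRCm38.p6. All 37 symbols matched RefSeq and 29 of the 36 listed members had a promoter window. Alternatives were DESeq2 1.42.0, limma 3.58.1 on log2(TPM + 1) and log2(TPM + 0.1), other filters, normalizations and spread estimates, only the groups compared, the replicate block, and each liver left out. The values of 1 other gene of the pathway are not reported here.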

Additional observations from a re-analysis of the deposited data

How the results depend on the processing

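Of 27 called results for single genes, 0 reversed in the 16 alternatives and 0 kept the call in all 16, since every call was lost without either sham liver, where 0 genes of the whole table were called. The 10 members called higher in intra-C than in sham became 21 with DESeq2 and 21 with only the groups compared, and 0 to 23 with a liver left out (2 and 4 without intra-C livers 1 and 2, 23 and 22 without intra-S livers 1 and 2). The 0 called lower became 2 (Klkb1 and Vkorc1) with only the groups compared and 0 to 2 with a liver left out. The 14 called higher in intra-S became 6 with only the groups compared and 0 to 17 with a liver left out (8 without either intra-C liver). The 0 called lower became 1 with DESeq2, 1 with limma on log2(TPM + 1), 1 on log2(TPM + 0.1) and 0 to 4 with a liver left out. In the direct comparison DESeq2 called 2 higher and 2 lower, and leaving out a liver gave 0 to 3 higher and 0 to 9 lower. The log2 fold change of Serpinf2 in intra-S turned from 0.20 to -0.034 without TMM, -0.26 on log2(TPM + 1) and -0.26 on log2(TPM + 0.1), and ranged from -0.68 (without intra-S liver 2) to 0.75 with a liver left out. The cause was not tested. Without TMM the median over all genes shifted by -0.26 and -0.27, and on log2(TPM + 1) by -0.18 and -0.30, and the calls over all genes went from 806 higher and 389 lower to 569 and 801 without TMM in intra-C, and from 1110 and 646 to 838 and 1115 in intra-S. Replicate numbers did not pair the livers (correlations of -0.032, 0.0827 and 0.0428 across genes), and with the replicate block 9 and 13 members were called higher than sham in intra-C and intra-S and 0 in the direct comparison.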
